A study of Mus musculus with 4 samples.

Results

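Microglia are the resident macrophages of the brain, and the 9 genes described here, P2ry12, Cx3cr1, Tmem119, Csf1r, C1qa, C1qb, C1qc, Trem2 and Tyrobp, encode membrane and secreted proteins by which they are recognised and by which they act on synapses. They were taken by name from the deposited table, in which each name matched 1 of 29224 genes. All 9 had enough reads to be tested, P2ry12 only through the knockout libraries. In RNA from bead-sorted cortical astrocytes, all 9 were higher in Ezh2 cKO than in Ezh2 f/f at an adjusted p under 0.05, as were 34.7% of all genes tested, but by very different amounts. P2ry12 rose 27.7-fold and Cx3cr1 9.13-fold, whereas the 3 C1q chains rose between 1.93- and 2.06-fold. Csf1r, Tmem119, Trem2 and Tyrobp lay between them, at 2.62- to 3.42-fold.

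Microglia enter the brain early in embryonic life, live there under the control of the receptor CSF1R, and pass from a rounded, phagocytic state to a branched one as the postnatal cortex matures. The branched, surveying state is marked by receptors such as P2RY12, which senses ADP, and CX3CR1, which senses the neuronal ligand fractalkine. Microglia are also the main source of C1q in the brain, the protein that starts the classical complement pathway and can tag synapses for removal, and they carry TREM2, a lipid-sensing receptor that signals through the adaptor TYROBP.

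The libraries were made from P5 cerebral cortex with beads against ACSA1, the astrocyte surface antigen GLAST. There were 2 libraries labelled Ezh2fl/fl (Ezh2 f/f) and 2 labelled Ezh2-cKO-Aldh1l1 (Ezh2 cKO), named controls and knockouts from here on. In the knockouts both Ezh2 alleles are floxed and Cre is driven by Aldh1l1, an astrocyte gene and not a microglia gene. Both groups carry floxed Ezh2. The labels do not give the number or sex of the mice in a library, so p-values measure only the spread between these libraries, which may be technical. Each library held between 16273308 and 17522152 counts, so a gene with 3 counts, the limit that a count of 0 allows, stood at 0.171 to 0.184 CPM, the counts scaled to the library total (CPM given elsewhere also use the TMM scaling factors). Ezh2 itself had 434 and 327 counts in the controls and 211 and 164 in the knockouts (log2 fold change -1.11, standard error (SE) 0.16, adjusted p = 3.26e-05 in edgeR). The groups differed in a large share of all genes. Of 16793 genes tested, 68.4% were called in either direction, with 34.7% higher and 33.6% lower in the knockouts, and the median log2 fold change of all genes tested was 0.02. Against this background, 9 of the 9 genes were called higher, and their median was 1.40. At least 2-fold higher were 7 of them, a call made for 19.0% of all genes. At least 4-fold higher were 2 of them, P2ry12 and Cx3cr1, against 6.52% of all genes. In all 9 both Ezh2 cKO libraries lay above both Ezh2 f/f libraries in CPM, which was also so for 42.8% of all genes tested. Libraries of bulk RNA do not show which cells the RNA came from, nor tell more cells from more RNA per cell. The cells that carried the RNA of the 9 genes were not tested.

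Levels were compared between genes on the FPKM scale, which divides the counts by gene length and by the library total. In the controls the C1q chains stood highest, with C1qb at 20.1 ± 0.240 FPKM (SD, n = 2), C1qa at 16.3 ± 0.932 and C1qc at 11.2 ± 1.49. They were followed by Tyrobp (7.92 ± 1.04 FPKM), Csf1r (4.35 ± 0.481), Tmem119 (2.37 ± 0.870), Trem2 (1.04 ± 0.122), Cx3cr1 (0.921 ± 0.0481) and P2ry12 (0.223 ± 0.0938). Trem2 and Cx3cr1 differed by no more than their spread. In the knockouts the order at the top was the same, with C1qb at 41.9 ± 4.22 FPKM, C1qa at 35.6 ± 1.31, C1qc at 22.9 ± 4.35, Tyrobp at 22.0 ± 4.64 and Csf1r at 12.7 ± 1.69. Below them Cx3cr1 (8.90 ± 0.977 FPKM) and Tmem119 (8.60 ± 0.773) could not be told apart, nor could C1qc and Tyrobp. P2ry12, the lowest in the controls, stood at 6.57 ± 0.472 FPKM and Trem2 was now the lowest at 2.92 ± 0.534. Among all 29224 genes ranked by FPKM from the top, P2ry12 moved from places 18254 and 16383 to 6583 and 6240, and C1qb from 2856 and 2827 to 1239 and 1419. The table gives Trem2 a length of 4946 bases and Tyrobp 667, so the FPKM of Trem2 depends on the long gene model used for it.

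**Figure D1:**
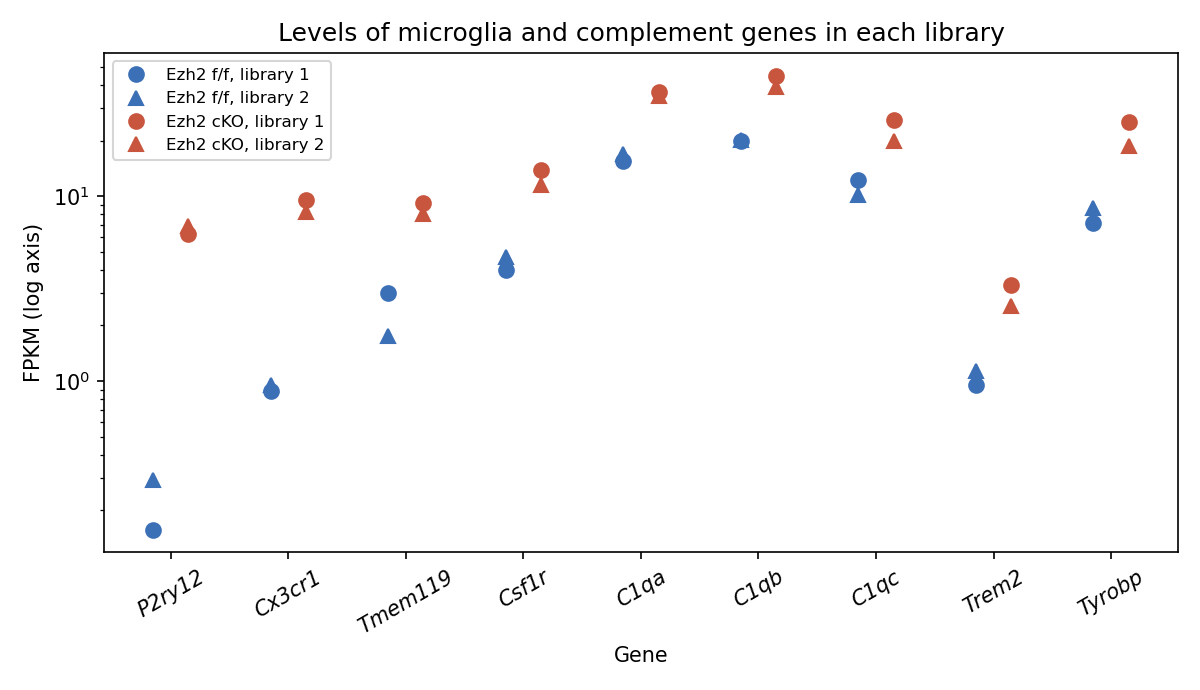
FPKM (log axis) of the 9 genes in each library, with circles for library 1 and triangles for library 2 of each group, Ezh2 f/f in blue and Ezh2 cKO in red. The red points lie above the blue ones for every gene, and the gap is widest for P2ry12 (0.157 and 0.290 against 6.23 and 6.90 FPKM) and narrow for C1qc (12.3 and 10.2 against 26.0 and 19.9 FPKM).

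The membrane proteins of the surveying state were examined next. P2ry12 (ENSMUSG00000036353), the ADP receptor by which microglial processes move towards injury, had 7 and 12 counts in the controls and 275 and 293 in the knockouts. It was thus close to the limit of detection in the controls and plainly present in both knockout libraries. P2ry12 met the filter on low counts only with the knockout libraries, so a lower call was not open to it. Its log2 fold change was 4.79 (SE 0.27, adjusted p = 2.70e-09 in edgeR), and 50 of 16793 genes had a larger one. A pseudocount lowers this value because the control level is so low, and limma on log2(FPKM + 1) gave 2.63. It occupies chromosome 3, positions 59123693 to 59170292, minus strand, within Med12l on the other strand, which had a log2 fold change of 0.57. Without knowledge of how strand was used, reads of such overlapping genes cannot be told apart. Coordinates here are those of the deposited table, whose build is not settled.

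Cx3cr1 (ENSMUSG00000052336), the fractalkine receptor through which neurons restrain and attract microglia, had 70 counts in each control and 749 and 617 in the knockouts. The control libraries had equal counts and both knockout libraries far above them (log2 fold change 3.19, SE 0.16, adjusted p = 9.96e-10 in edgeR). Its listed span on chromosome 9, from 119730682 to 119898945, takes in several other genes. Of these Gorasp1, on the same strand, had a log2 fold change of 1.22 and Csrnp1 one of -0.11. Tmem119 (ENSMUSG00000054675, chromosome 5 from 113931790 to 113938577), which encodes a membrane protein used to tell microglia from blood macrophages, had 121 and 66 counts in the controls and 367 and 311 in the knockouts. Control library 1 was the higher of the controls, and neither reached the knockout libraries (log2 fold change 1.77, SE 0.21, adjusted p = 4.20e-06). Leaving out Ezh2 f/f replicate 1 raised this value to 2.20, and leaving out Ezh2 f/f replicate 2 lowered it to 1.44. Csf1r (ENSMUSG00000024621), the receptor for CSF1 and IL-34 on which microglial survival depends, had 406 and 441 counts in the controls and 1395 and 1112 in the knockouts. Both knockout libraries lay above the controls (log2 fold change 1.47, SE 0.12, adjusted p = 1.26e-07). Its end overlaps Hmgxb3 on the other strand, which was lower, with a log2 fold change of -0.43.

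The 3 C1q genes encode the chains that assemble into the C1q molecule. They lie next to each other on the minus strand of chromosome 4, in a stretch of 18675 bases from 136607440 to 136626114 that holds 0 other listed genes. C1qa (ENSMUSG00000036887) had 285 and 287 counts in the controls and 659 and 602 in the knockouts, a log2 fold change of 1.05 (SE 0.12, adjusted p = 3.25e-06 in edgeR). C1qb (ENSMUSG00000036905) had 379 and 358 counts in the controls and 846 and 706 in the knockouts, a log2 fold change of 0.98 (SE 0.12, adjusted p = 4.33e-06). C1qc (ENSMUSG00000036896) had 416 and 320 counts in the controls and 871 and 640 in the knockouts, a log2 fold change of 0.95 (SE 0.14, adjusted p = 4.46e-05). In each of the 3 genes the groups did not overlap, and Ezh2 cKO library 1 was the higher of the knockout libraries. The chains kept nearly the same proportions. C1qb stood at 1.27 and 1.19 times C1qa in FPKM in the controls and at 1.23 and 1.12 times in the knockouts, and C1qc at 0.786 and 0.601 times C1qa in the controls and at 0.712 and 0.573 times in the knockouts. For both ratios the values of the groups overlapped.

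Trem2 (ENSMUSG00000023992, chromosome 17 from 48653429 to 48661175) encodes the receptor, and Tyrobp (ENSMUSG00000030579, chromosome 7 from 30113185 to 30117010) the adaptor that carries its signal into the cell. Trem2 had 83 and 91 counts in the controls and 283 and 210 in the knockouts, a log2 fold change of 1.40 (SE 0.20, adjusted p = 1.99e-05 in edgeR). Tyrobp had 84 and 94 counts in the controls and 292 and 208 in the knockouts, a log2 fold change of 1.39 (SE 0.20, adjusted p = 2.87e-05). The pair moved almost as one across the libraries. The log2 ratio of Trem2 to Tyrobp in FPKM was -2.91 and -2.94 in the controls and -2.94 and -2.88 in the knockouts, and the groups overlapped.

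Because the 9 genes rose by unequal amounts, their composition differed between the groups. The C1q chains together made up 74.7% and 73.0% of the summed FPKM of the 9 genes in the controls, and 61.4% and 62.6% in the knockouts. The 4 genes P2ry12, Cx3cr1, Tmem119 and Csf1r made up 12.6% and 11.9% in the controls and 22.2% and 23.2% in the knockouts. The difference came mostly from P2ry12 and Cx3cr1. P2ry12 held 0.245% and 0.447% of the sum in the controls against 3.56% and 4.62% in the knockouts, and Cx3cr1 1.39% and 1.47% against 5.48% and 5.49%. Trem2 and Tyrobp also encode membrane proteins but are not among the 4. Tyrobp held 11.2% and 13.4% against 14.4% and 12.5%, and Trem2 1.5% and 1.74% against 1.89% and 1.7%. Set against Csf1r, which microglia need in every state, P2ry12 stood at 0.0391 and 0.0617 times its FPKM in the controls and at 0.447 and 0.598 times in the knockouts. The same ratio for Cx3cr1 was 0.221 and 0.203 in the controls and 0.688 and 0.711 in the knockouts. Tmem119 behaved otherwise, at 0.743 and 0.373 times Csf1r in the controls and at 0.656 and 0.698 times in the knockouts, where the groups overlapped. The mean log2 FPKM of these 4 genes minus that of the C1q chains was -3.78 and -3.63 in the controls and -1.90 and -1.81 in the knockouts, a difference of 1.85 on the log2 scale. With 2 libraries per group an exact two-sided permutation test of such a ratio cannot give a p below 0.333, which is the value it gave here.

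**Figure D2:**
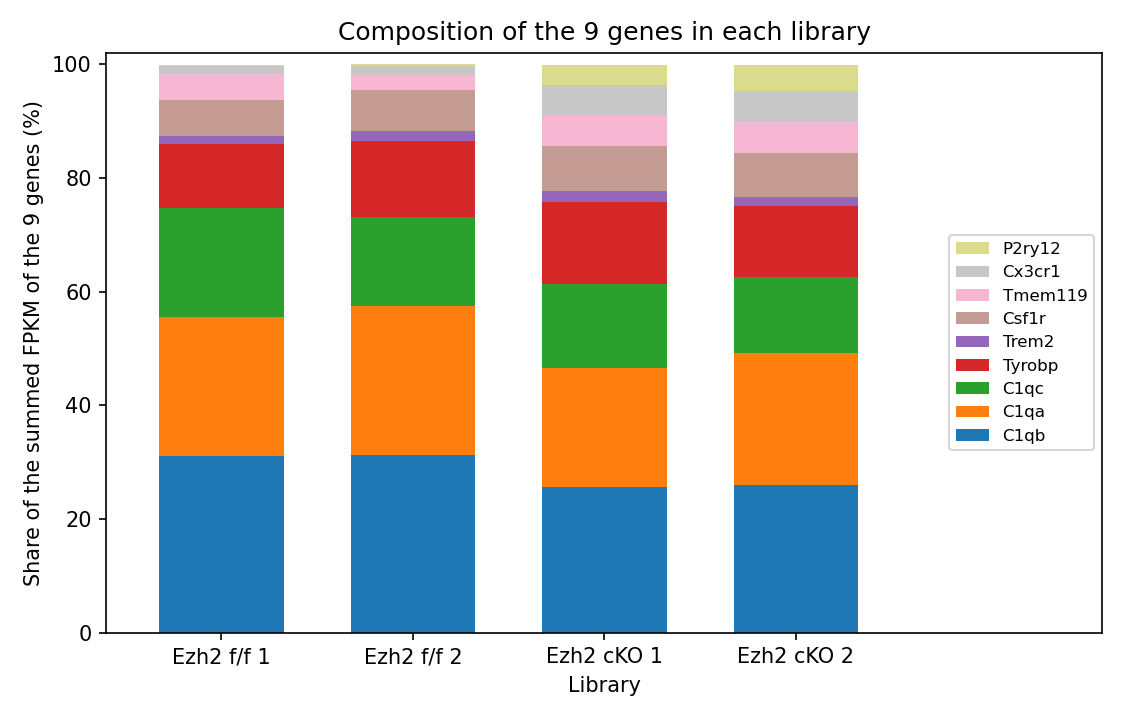
Share of each gene in the summed FPKM of the 9 genes, in percent, as 1 stacked bar per library. The C1q chains, at the foot of each bar, take 74.7% and 73.0% of the control bars against 61.4% and 62.6% of the knockout bars, and P2ry12, at the top, is visible mainly in the latter.

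Promoter sequence is shown for P2ry12 and Cx3cr1, which rose most, and for C1qb, C1qc and Trem2, so that genes with large and small changes can be read side by side. These 5 of the 9 genes were matched in the RefSeq promoter table, on GRCm38.p6. Each line gives the 250 bases before the start of the gene, 5′ to 3′ on the strand of the gene. Capitals mark AGGAAG or its complement, the core bound by ETS factors, the family of the macrophage regulator PU.1.
P2ry12: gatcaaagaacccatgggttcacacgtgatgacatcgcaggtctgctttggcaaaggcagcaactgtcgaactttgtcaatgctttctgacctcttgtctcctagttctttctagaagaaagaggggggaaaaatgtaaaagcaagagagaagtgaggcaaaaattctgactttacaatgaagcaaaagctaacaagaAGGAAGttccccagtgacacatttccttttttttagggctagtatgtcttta
Cx3cr1: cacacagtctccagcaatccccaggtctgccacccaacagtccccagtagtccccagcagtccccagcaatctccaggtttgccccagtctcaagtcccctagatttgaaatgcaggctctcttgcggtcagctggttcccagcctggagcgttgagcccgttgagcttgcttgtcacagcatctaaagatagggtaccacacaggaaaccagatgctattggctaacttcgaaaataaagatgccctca
C1qb: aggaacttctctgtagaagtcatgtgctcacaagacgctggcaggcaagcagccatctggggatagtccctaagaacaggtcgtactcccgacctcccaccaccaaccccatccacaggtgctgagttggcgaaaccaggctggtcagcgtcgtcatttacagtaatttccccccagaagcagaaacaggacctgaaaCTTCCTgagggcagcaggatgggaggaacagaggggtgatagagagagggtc
C1qc: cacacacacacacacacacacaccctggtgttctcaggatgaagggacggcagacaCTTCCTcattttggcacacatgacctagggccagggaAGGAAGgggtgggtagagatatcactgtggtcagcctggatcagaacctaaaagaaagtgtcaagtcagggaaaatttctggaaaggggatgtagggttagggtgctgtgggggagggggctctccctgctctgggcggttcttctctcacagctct
Trem2: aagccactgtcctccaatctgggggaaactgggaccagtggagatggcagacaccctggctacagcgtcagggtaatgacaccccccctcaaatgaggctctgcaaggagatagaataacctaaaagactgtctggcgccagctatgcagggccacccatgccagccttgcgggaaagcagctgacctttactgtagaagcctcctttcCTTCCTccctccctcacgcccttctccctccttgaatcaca
The windows are chr3:59262986-59263235 for P2ry12, chr9:120068297-120068546 for Cx3cr1, chr4:136886201-136886450 for C1qb and chr4:136892915-136893164 for C1qc, all on the minus strand, and chr17:48346151-48346400 on the plus strand for Trem2. AGGAAG was found on either strand in P2ry12, C1qb, C1qc and Trem2 and not in Cx3cr1, and 29.5% of all 32851 promoters of this length hold it. It begins 52 bases before the start in P2ry12 and C1qb and 41 bases before it in Trem2. The longer PU.1 motif GAGGAAGT, which contains AGGAAG, was found in C1qc, as in 2.44% of all promoters. The CCAAT box, searched as CCAAT, was found in Cx3cr1 and Trem2 and in 33.8% of all, and TATAAA in 0 of the 5 and in 12.4% of all. A match of letters is a description of the window and not a measured binding site.

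Other genes of microglia were read from lists beside the 9. Counts of calls in every list below stand beside 34.7% of all genes tested called higher and 33.6% called lower. Of 16 further homeostatic microglia genes, 15 were tested, of which 14 were higher and 0 lower in the knockouts, with a median log2 fold change of 1.95 against 0.02 over all genes. At least 8-fold higher were 5 of them, a call made for 2.07% of all genes tested. They were P2ry13, an ADP receptor related to P2ry12, with 4 and 9 counts in the controls and 225 and 164 in the knockouts, the selectin ligand Selplg with 11 and 7 against 244 and 195, the lipid receptor Gpr34 with 9 and 5 against 120 and 136, the lectin Siglech with 18 and 6 against 206 and 143, and Crybb1 with 13 and 15 against 199 and 178. Like P2ry12, these had few counts in the control libraries and over 100 in the knockout libraries. The filter on low counts can be met by the knockout libraries alone. Of these 5, only Crybb1 also met it in the controls, so a lower call was not open to the other genes. Ctss, the gene of a lysosomal protease, was at a log2 fold change of 1.19. Sall1, a transcription factor of microglia, was the lowest at 0.26 (SE 0.15, adjusted p = 0.131 in edgeR). Sall1 had 231 and 194 counts in the controls, far above those 5 genes, and 265 and 277 in the knockouts. The cells that carried its RNA were not tested. Cst3, Sparc and Bin1 in this list are also expressed by astrocytes or neurons, and Gpr84 had too few counts to be tested.

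Fc receptor and pan-leukocyte genes moved mostly in the same direction. Of 14 tested, 12 were higher and 0 lower, beside 34.7% and 33.6% of all genes tested, with a median log2 fold change of 1.23. Ptprc, with 8 and 10 counts in the controls and 19 and 15 in the knockouts, was not called (log2 fold change 0.81, adjusted p = 0.133 in edgeR). Aif1, which encodes the microglia stain IBA1, had 16 and 7 counts in the controls and 145 and 93 in the knockouts (log2 fold change 3.27, SE 0.36, adjusted p = 1.94e-06 in edgeR). Aif1 and Ptprc met the filter on low counts only with the knockout libraries, so a lower call was not open to them. Fcer1g, an adaptor closely related to Tyrobp, rose by a log2 fold change of 1.20, beside 1.39 for Tyrobp itself. Cd68, a lysosomal protein abundant in phagocytic cells, had 216 and 228 counts in the controls and 275 and 220 in the knockouts, and its groups overlapped (log2 fold change 0.06, SE 0.16, adjusted p = 0.752). Of 10 macrophage transcription factors, 3 were higher and 1 lower, so the higher genes were near the 34.7% of all genes tested. Spi1, which encodes PU.1, was highest at a log2 fold change of 1.21, beside 0.95 to 1.05 for the C1q chains. Irf8 rose by 0.60, and Mef2c, which neurons also express, by 1.06. The median of this list was 0.38, and without Ezh2 f/f replicate 1 its lower genes numbered 2.

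**Figure D3:**
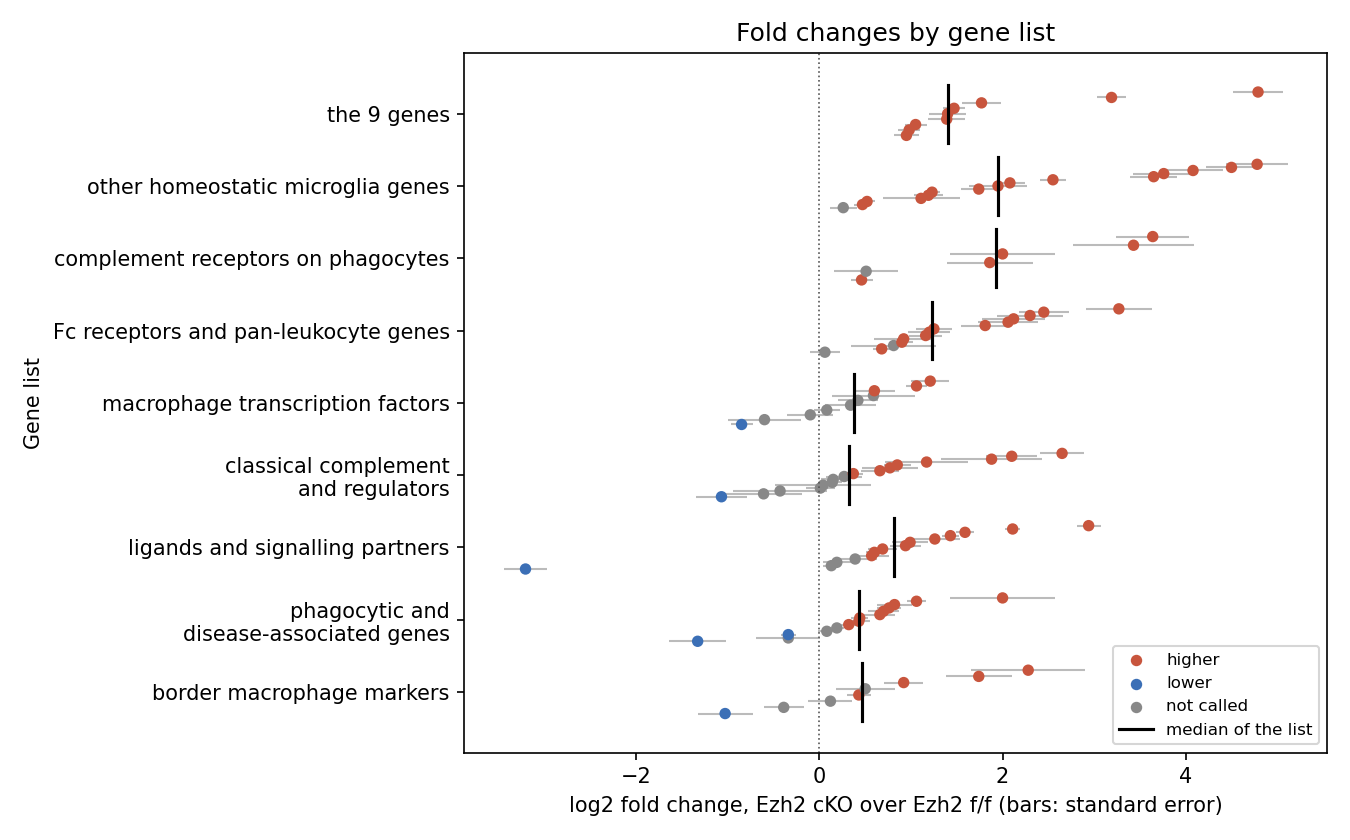
Log2 fold change, Ezh2 cKO over Ezh2 f/f, of each tested gene in 9 lists, with its standard error as a bar, red for higher, blue for lower and grey for not called at an adjusted p under 0.05 in edgeR. Black lines are list medians, which run from 0.32 for the classical complement list to 1.95 for the other homeostatic microglia genes.

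Genes of the phagocytic and disease-associated state, which TREM2 is known to promote, were read next. Of 18 listed, 14 were tested, of which 9 were higher and 2 lower, with a median log2 fold change of 0.43. At least 2-fold higher were 2 of the 14, a call made for 19.0% of all genes tested. They were Cd9 (log2 fold change 1.06) and the integrin gene Itgax (2.00), which is also among the complement receptors. Itgax had only 6 and 3 counts in the controls. Lgals3, which encodes galectin-3, fell from 121 and 74 counts in the controls to 54 and 28 in the knockouts (log2 fold change -1.33, SE 0.31, adjusted p = 0.00159 in edgeR). Gpnmb had 38 counts in each control and 43 and 21 in the knockouts, and the groups overlapped. Clec7a, Cst7, Ccl3 and Ccl4 had too few counts to be tested.

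The complement pathway downstream of C1q was followed through its proteases, substrates, regulators and receptors. Of the 16 classical complement and regulator genes in the table, 8 were higher and 1 lower, with a median log2 fold change of 0.32. With DESeq2, and without Ezh2 cKO replicate 1, 4 were higher, and without Ezh2 cKO replicate 2 0 were lower. With limma on log2(FPKM + 1) without a filter, 3 were higher and 0 lower. The protease genes that complete the C1 complex were scarce, with C1ra at 9 and 12 counts in the controls and 33 and 18 in the knockouts, and C1s1 at 6 and 5 against 31 and 13. C4b, which encodes the C4 that C1 cleaves, rose from 32 and 47 counts to 309 and 224 (log2 fold change 2.65, SE 0.24, adjusted p = 3.12e-07 in edgeR). C4a, its near-identical neighbour, was lower at a log2 fold change of -1.07, and since the counting could split reads between such copies, both values are uncertain. C3, the central component, had 12 and 17 counts in the controls and 7 and 16 in the knockouts, so that a change was not detectable at this depth. The inhibitor of C1, Serping1, had 196 and 175 counts in the controls and 214 and 183 in the knockouts, with overlapping groups. Cd55, a membrane inhibitor of complement, rose by a log2 fold change of 2.10.

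Of 8 complement receptors of phagocytes, 6 were tested, with 5 higher and 0 lower and a median log2 fold change of 1.93. Itgam, Itgb2, Itgax and C5ar1 met the filter on low counts only with the knockout libraries, so a lower call was not open to them. Itgam, the alpha chain of the receptor CR3 by which microglia take up C3-tagged synapses, had 5 counts in each control and 78 and 58 in the knockouts (log2 fold change 3.64, SE 0.40, adjusted p = 1.96e-06 in edgeR). Its partner chain Itgb2 had 13 and 5 counts against 44 and 26, a log2 fold change of 1.86. C5ar1, the receptor for the C5a peptide, had 2 and 1 counts in the controls, under the limit of detection, and 16 and 21 in the knockouts. The ratio of its summed counts, 37 against 3, was 11.6 after scaling, with an exact 95% interval of 3.66 to 58.6 that covers counting error only. Cd93, which endothelial cells also express, was the lowest of the list at 0.46. Without Ezh2 cKO replicate 1, 2 of these genes were called higher.

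The ligands that reach the 9 genes' receptors come mostly from other cells. Of 16 genes listed as ligands and signalling partners, 14 were tested, of which 10 were higher and 1 lower, with a median log2 fold change of 0.81. Some of the list, such as Tgfb1, Gas6, Pros1 and Cd200, act through receptors outside the 9, so these values are not about the 9 genes' receptors alone. Il34, the neuronal ligand of CSF1R, rose from 149 and 112 counts in the controls to 1045 and 1088 in the knockouts (log2 fold change 2.94, SE 0.13, adjusted p = 3.86e-10 in edgeR). Csf1, its other ligand, had 216 and 238 counts against 290 and 263, a log2 fold change of 0.19 (adjusted p = 0.285). Cx3cl1, the fractalkine that binds CX3CR1, rose from 2380 and 2137 to 10333 and 10422 counts, a log2 fold change of 2.11. Receptor and ligand of this pair thus each lay higher in both knockout libraries, as did 42.8% of all genes tested. Apoe, a lipid carrier that binds TREM2 and is made by astrocytes as well as microglia, rose by 1.43, and Tgfb1 by 0.69. Downstream of TYROBP, the kinase gene Syk rose by 0.57, and Plcg2 was at 0.39 (adjusted p = 0.160). Lat2, a leukocyte adaptor, went the other way, from 263 and 192 counts in the controls to 30 and 22 in the knockouts (log2 fold change -3.21, SE 0.24, adjusted p = 3.80e-08).

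Markers of border macrophages, monocytes, neutrophils and lymphocytes were compared with the 9 genes. The summed level of the 9 genes was 108 and 111 CPM in the controls and 325 and 271 in the knockouts. Of 9 border macrophage markers, 8 were tested, with 4 higher and 1 lower, a median log2 fold change of 0.47 and a summed level of 44.6 to 45.6 CPM in the controls and 54.8 to 64.7 in the knockouts. Mrc1 was at a log2 fold change of 0.92 and Clec10a at 2.28, whereas Cd163 was at -1.03, and Pf4 had 103 and 84 counts in the controls and 75 and 77 in the knockouts. Without Ezh2 cKO replicate 1, 2 of these markers were called higher, and without Ezh2 cKO replicate 2 0 were called lower. Of 11 monocyte and neutrophil markers 3 were tested, with 1 higher and 2 lower, and their summed level was 51.3 to 59.1 CPM in the controls and 43.0 to 46.8 in the knockouts, most of it from Vcan, which glial precursors also express. Leaving out any 1 library left 0 of these markers higher, and leaving out Ezh2 f/f replicate 1, Ezh2 cKO replicate 1 or Ezh2 cKO replicate 2 left 0 lower. DESeq2 called 0 higher and 1 lower, and the fit with the replicate block 0 higher. The monocyte receptor Ccr2 had 0 counts in both controls and 3 and 2 in the knockouts. Of 10 lymphocyte markers, 8 were listed and 2 were tested, Cd79b at a log2 fold change of 1.27 and Cd79a at -0.68, and neither was called, with a summed level of 2.16 to 3.04 CPM over the 4 libraries, and Cd3e and Ms4a1 had no more than 1 count in any library. Without Ezh2 f/f replicate 2, 1 lymphocyte marker was called higher and 1 lower, and with the replicate block 1 was called higher.

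Markers of the other brain cells differed in how many were called, where 34.7% of all genes tested were higher and 33.6% lower. Of 12 astrocyte markers 10 were higher and 0 lower, with a median log2 fold change of 1.69 and a summed level of 648 to 705 CPM in the controls and 3050 to 3350 in the knockouts, while Aldh1l1 and Sox9 were at -0.15 and -0.06. All 10 oligodendrocyte lineage markers were higher, with a median of 1.60 and a summed level of 243 to 255 against 1060 to 1230 CPM. Of 12 neuron markers 6 were higher and 3, Tubb3, Neurod2 and Neurod6, lower, with a median of 0.30 and the highest summed level of the lists, 6550 to 6720 in the controls and 7860 to 7930 in the knockouts. Of 11 endothelial and mural markers 3 were higher and 2 lower (median 0.12, summed level 359 to 367 against 423 to 478), and of 5 erythrocyte markers tested 3 were higher and 0 lower (median 0.32, summed level 373 to 452 against 465 to 469). Leaving out replicate 1 of either group left 0 erythrocyte markers higher, and 1 was lower when Ezh2 f/f replicate 2 or Ezh2 cKO replicate 1 was left out and with the replicate block. The lower endothelial and mural markers numbered 1 with DESeq2, with the replicate block and when any library but Ezh2 f/f replicate 2 was left out. No astrocyte, neuron, oligodendrocyte or endothelial marker had a count of 0 in any library. The libraries labelled as astrocytes thus held astrocyte markers throughout, but neuron markers stood higher in sum in all 4. Tubb3 alone gave 3560 and 3670 CPM of the neuron sum in the controls and 2250 and 2170 in the knockouts. CPM are not scaled to gene length, so sums of different lists do not measure the share of each cell type. The part of these other cells in the levels of the 9 genes was not tested.

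**Figure D4:**
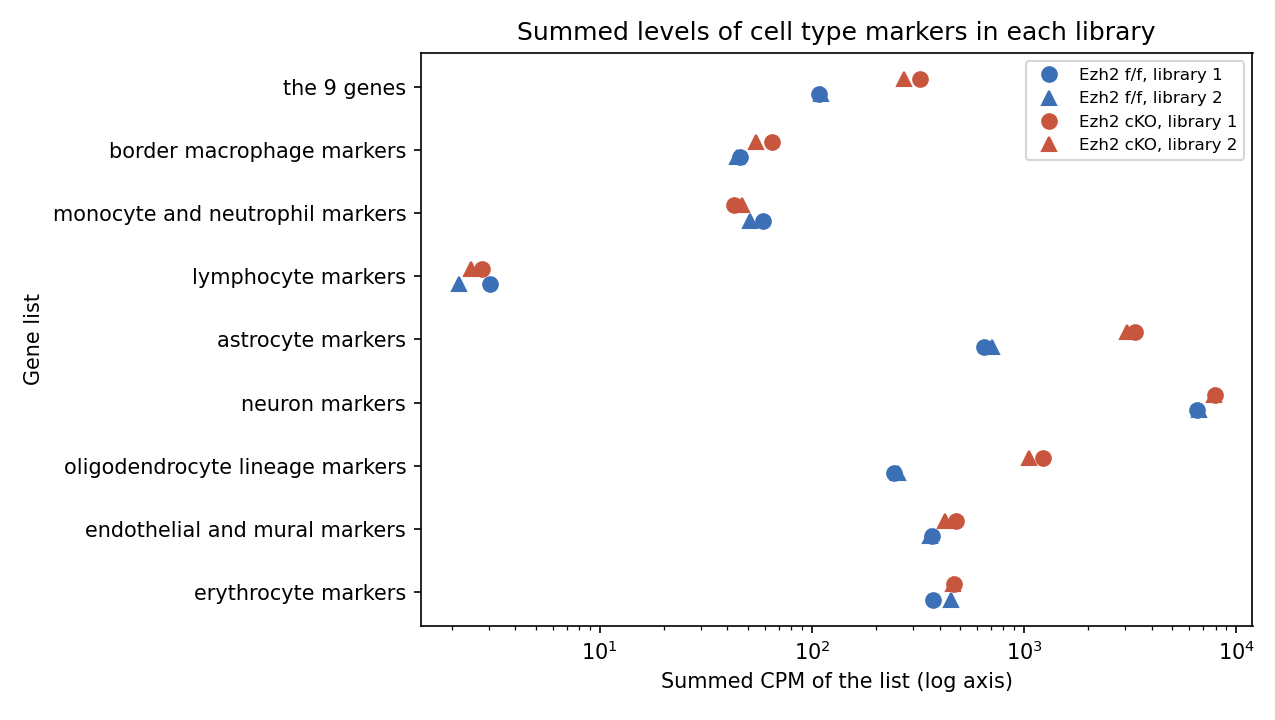
Summed CPM (log axis) of 9 marker lists in each library, with circles for library 1 and triangles for library 2, Ezh2 f/f in blue and Ezh2 cKO in red. The groups lie far apart for the 9 genes (108 and 111 against 325 and 271) and for the astrocyte and oligodendrocyte lineage lists, and close together or overlapping for lymphocyte, endothelial and mural, and erythrocyte lists.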

How the data were processed

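Reads were counted per gene and deposited by the authors as whole-number counts, without normalization, together with FPKM values that the authors scaled to library total and to 1 length per gene. The submitters' processing notes name Bowtie2 2.2.3, TopHat2 2.0.12, HTSeq 0.6.0 and mm9. The deposited coordinates match GENCODE M21 (GRCm38) for 581 of 28799 genes, so they are printed as deposited and not converted. The use of strand is not given in the sources used here. The table also holds the authors' own comparison (a mean signal, fold change and p-values), which was not used.

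Counts of 4 libraries were filtered with filterByExpr, normalized by TMM and compared with the quasi-likelihood test of edgeR 4.0.16 in R 4.3.3, with group as the only term and Benjamini-Hochberg adjustment over 16793 genes. A positive log2 fold change is a higher level in the knockouts, and standard errors were taken from the test statistic. The threshold for a call was an adjusted p under 0.05. Tests were tried on simulated data. Alternatives were DESeq2 1.42.0, its size factors in edgeR, other filters on low counts, limma 3.58.1 on log2(FPKM + 1), with and without a filter, or on log2(FPKM + 0.1), the replicate number as a block, and each library left out. Named are Ezh2, the 9 genes and any gene of the lists, always with the highest and lowest tested gene of each pathway list, except that some listed genes are not reported here. The 9 genes and the lists were chosen with earlier results of these data known. Figures were drawn in Python 3.11.15 with matplotlib 3.10.9. Limits of detection cover counting error only.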

Additional observations from a re-analysis of the deposited data

How the results depend on the processing

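All 9 genes were called higher and 0 lower in each of the 12 alternatives, and none of the 108 values of their log2 fold changes changed direction or lost its call. The range over the alternatives was 2.63 to 5.27 for P2ry12, 2.36 to 3.32 for Cx3cr1, 1.44 to 2.20 for Tmem119, 1.31 to 1.61 for Csf1r, 0.98 to 1.12 for C1qa, 0.86 to 1.10 for C1qb, 0.72 to 1.15 for C1qc, 0.94 to 1.60 for Trem2 and 1.14 to 1.61 for Tyrobp. The highest adjusted p was 0.0190, for C1qc. The lower ends for P2ry12, Cx3cr1 and Trem2 came from limma on log2(FPKM + 1), where the pseudocount shrinks genes of low level. Over all genes, between 4677 and 5795 were higher and between 4518 and 5747 lower under the alternatives. With the replicate number as a block, 5795 were higher and 5599 lower, and all 9 genes kept their call. The labels do not say that a number marks a shared litter or day, and the deviations of same-numbered libraries correlated with r = 0.13 across genes, so the numbers were not taken as pairs. Leaving out each library gave 4677 to 5680 higher and 4756 to 5594 lower genes. Of 384 counts of list genes, 320 stayed within 1.5 times the reported count. Complement receptors had 1 higher gene with a filter of 50 counts on average and with limma on filtered FPKM, where fewer of them are tested, and 3 with limma on log2(FPKM + 1) without a filter. Depth limits genes with under 20 counts in each control library. Among them are P2ry12, P2ry13, Selplg, Gpr34, Siglech, Crybb1, Aif1, Ptprc, Itgam, Itgb2, Itgax, C5ar1, C1ra, C1s1, C3, Clec10a and C1ql3. Several of these, P2ry12 included, met the filter on low counts only with the knockout libraries.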

Other observations

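Genes whose proteins carry a C1q-like domain but do not belong to complement, several of which act at synapses, were read beside the C1q chains. Of 7 such genes, all tested, 4 were higher and 1 lower in the knockouts, with a median log2 fold change of 0.76. C1ql1 rose from 48 and 59 counts in the controls to 405 and 321 in the knockouts, a log2 fold change of 2.66 (adjusted p = 4.33e-08 in edgeR). C1ql3 rose from 11 and 3 counts to 60 and 67, a log2 fold change of 3.07, and C1qtnf4, the most counted of the list, from 1874 and 2002 to 3835 and 3836. Cbln1, which organises synapses of the cerebellum, had 1197 and 1680 counts in the controls and 1189 and 817 in the knockouts (log2 fold change -0.63, adjusted p = 0.00643). The lower genes of the list numbered 0 with DESeq2, with limma and without Ezh2 cKO replicate 2, and 2 without Ezh2 f/f replicate 1. C1ql2 and Cbln2 were not called, with overlapping groups.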
